A study of Homo sapiens with 8 samples.

Results

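Isolated CpGs are CpGs with no close neighbour in the deposited data. A CpG was called isolated when it lay on an autosome, had 10 or more reads in every library, and no other CpG position listed in any of the 8 files lay within 50 bases on either side. The rule was met by 29667 of the 203892 autosomal CpGs with 10 or more reads in every library (14.6%). They were set against 76513 crowded CpGs (37.5%), which had 4 or more listed neighbours within 50 bases under the same coverage rule. Isolation here is a matter of what the files list, so a CpG that no library covered does not count as a neighbour.

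The DNA came from HUES64 cells, an established human embryonic stem cell line, in which DNMT3A and DNMT3B are knocked out, per the labels. Methylation was measured by RRBS (reduced representation bisulfite sequencing), a method that enriches CpG-rich fragments, at passages 6, 7, 8, 11, 13, 17, 27 and 28. There was 1 library per passage, all 8 carried both knockouts, and unedited cells were not analysed here. Whether the passages follow 1 clone or culture is not in the labels, so p-values reflect only how far these libraries scatter about a trend, and that scatter may be technical.

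DNMT3A and DNMT3B place methyl groups on unmethylated CpGs. DNMT1, the maintenance enzyme, copies methylation onto the new strand after replication, and known biochemical work describes it as moving along DNA from CpG to CpG. With both de novo enzymes absent, the comparison of isolated with crowded CpGs asks whether the loss of methylation over passages differed with the number of close neighbours.

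Isolated CpGs were scattered thinly. They lay in 26858 tiles of 1000 bases, and 90.5% of these tiles held only 1 of them, while crowded CpGs numbered 2.61 per tile. The nearest listed CpG was at a median distance of 99 bases (interquartile range 77 to 125) from an isolated CpG and 5 bases (3 to 8) from a crowded CpG. Within 500 bases, a median of 4 other CpGs were listed around isolated CpGs and 37 around crowded CpGs. On single autosomes, isolated CpGs made up between 12.2% (chromosome 19) and 17.6% (chromosome 15) of the kept CpGs. The densest 100000 base window, on chromosome 18 at 76700001 to 76800000 (hg19), held 50 isolated CpGs, against a median of 2 per window.

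Over each whole set, median depth was similar. Median reads per CpG were 35 in isolated and 33 in crowded CpGs at passage 6, and 16 in both at passages 8 and 11. At the other 5 passages the medians lay between 18 and 22 in isolated CpGs and between 17 and 22 in crowded CpGs. CpGs within 50 bases of each other can be read on the same fragment, so the library, not the CpG, was the unit of every test across passages.

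Isolated CpGs were more methylated than crowded CpGs and lost more percentage points. Isolated CpGs had mean levels of 61.5%, 61.3% and 60.7% in the early libraries of passages 6 to 8, then 57.6%, 57.0% and 54.4% at passages 11, 13 and 17, and 47.5% and 46.0% at passages 27 and 28. Each library was lower than the one before it. Crowded CpGs stood at 22.1%, 22.1%, 21.8%, 21.0%, 20.9%, 20.2%, 18.0% and 17.6% in the same order of passages. The level of isolated CpGs averaged 46.8% over passages 27 and 28, against 61.2% ± 0.459 (SD, n = 3) over passages 6 to 8, so 76.4% of the early level was retained. Crowded CpGs averaged 17.8% over passages 27 and 28, against 22.01% ± 0.155 (SD, n = 3) over passages 6 to 8, with 80.8% retained.

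The isolated slope was -0.697 ± 0.0185 points per passage (SE, n = 8). Its r was -0.998 (two-sided exact permutation p = 2.48e-05, adjusted p = 3.31e-05 over 16 trends) and its rho -1 (exact permutation p = 4.96e-05), and with 8 libraries neither p can be smaller. Omitting both late passages, which lie farthest out on the passage axis, left r at -0.990 (exact permutation p = 0.00139, n = 6). The slope of isolated minus crowded CpGs was -0.492 ± 0.0130 points per passage (SE over n = 8 libraries, r = -0.998, exact permutation p = 2.48e-05, adjusted p = 7.44e-05 over 3 comparisons; rho = -1). This difference compares sets that began at different levels, and a CpG near 0% has little to lose.

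The start levels did differ. The start level was the mean over passages 6, 7 and 8. It was 90% or more in 32.3% of isolated and 12.4% of crowded CpGs, and under 10% in 20.3% of isolated and 70.8% of crowded CpGs. CpGs at 80% or more made up 48.8% of isolated CpGs at passage 6 and 32.2% at passage 28. The share at 20% or less was 23.5% in the passage 6 library and 39.7% in that of passage 28. Both shares moved with passage, by -0.728 ± 0.0387 and 0.713 ± 0.0172 points per passage (SE, n = 8; exact permutation tests, adjusted p = 0.000372 and 7.44e-05 over 6 trends). CpGs in the middle range made up 27.7% and 28.1% in those libraries, with a slope of 0.0149 ± 0.0309 (SE, n = 8) that was not significant (exact permutation p = 0.669).

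Within classes of start level, isolated CpGs fell in all 7 classes (adjusted p at most 0.00216 over 16 trends, exact permutation tests, n = 8). Loss in points was largest in the middle of the range. The 2343 isolated CpGs that started between 40 and 60% averaged 19.5% over passages 27 and 28, against 50.5% ± 2.06 (SD, n = 3) over passages 6 to 8, and retained 38.7%. The 4086 that started between 60 and 80% averaged 42.5%, against 71.3% ± 1.07 (SD, n = 3), and retained 59.5%. The 4854 that started between 80 and 90% averaged 68.3%, against 85.7% ± 0.575 (SD, n = 3), and retained 79.7%. The 9577 that started at 90% or more averaged 85.3%, against 95.3% ± 0.707 (SD, n = 3), and retained 89.5%.

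Isolated CpGs that started between 10 and 40% kept the smallest shares of their methylation. The 1822 that started between 20 and 40% averaged 7.47% over passages 27 and 28, against 30.2% ± 2.40 (SD, n = 3), and retained 24.7%. The 948 that started between 10 and 20% averaged 2.99%, against 14.8% ± 1.65 (SD, n = 3), and retained 20.2%. The 6037 that started under 10% averaged 0.513%, against 1.35% ± 0.312 (SD, n = 3), and retained 38.2%, a ratio of very low levels. Retention therefore did not rise with start level over the whole range, and differences between start classes were not tested.

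At the same start, isolated CpGs of low and intermediate level ended below crowded ones. In the class of 20 to 40%, isolated CpGs stood at 32.4%, 30.6%, 27.6%, 23.2%, 22.7%, 17.8%, 7.93% and 7.02% from passage 6 through passage 28. The 2193 crowded CpGs of this class stood at 32.0%, 30.5%, 28.8%, 25.7%, 24.96%, 22.2%, 16.3% and 15.4%. Isolated CpGs were at most 0.340 points above crowded ones at passages 6 and 7 and below them in every library from passage 8 on. The slope of isolated minus crowded was -0.395 ± 0.0198 points per passage (SE over n = 8 libraries, r = -0.993, exact permutation p = 0.000124, adjusted p = 0.000289 over the 7 classes; rho = -0.976).

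The neighbouring classes went the same way. Between 10 and 20%, isolated CpGs averaged 2.99% and the 1238 crowded CpGs 6.76% over passages 27 and 28, with a difference of slopes of -0.193 ± 0.0208 (SE, n = 8; exact permutation test, adjusted p = 0.000174). Between 40 and 60%, isolated CpGs averaged 19.5% and the 2250 crowded CpGs 24.8%, with a difference of slopes of -0.306 ± 0.0303 (SE, n = 8; exact permutation test, adjusted p = 0.000434). Under 10%, isolated CpGs averaged 0.513% over passages 27 and 28 and 1.35% over passages 6 to 8, while the 54198 crowded CpGs averaged 0.235% and 0.325%. The sets of this lowest class started at different levels, so its difference of slopes, -0.0368 ± 0.00740 (SE, n = 8; exact permutation test, adjusted p = 0.00323), is not one at equal start.

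The classes that started at 60% or more were compared in the same way. From 60 to 80%, isolated CpGs averaged 42.5% and the 3426 crowded CpGs 47.0% over passages 27 and 28, with a difference of slopes of -0.214 ± 0.0206 (SE, n = 8; exact permutation test, adjusted p = 0.000289). From 80 to 90%, isolated CpGs averaged 68.3% and the 3696 crowded CpGs 69.4%, and the difference of slopes, -0.0454 ± 0.0380 (SE, n = 8), was not significant (exact permutation p = 0.278, also after adjustment). Without passages 27 and 28 the difference of slopes in this class was -0.240 (r = -0.942, exact permutation p = 0.00417, n = 6). Isolated minus crowded was -2.22 points at passage 17 and -1.02 points at passage 28. At 90% or more, isolated CpGs averaged 85.3% and the 9512 crowded CpGs 87.4%, with a difference of slopes of -0.0854 ± 0.0244 (SE, n = 8; exact permutation test, adjusted p = 0.0173). This last call was lost without passage 8, at -0.0758 (exact permutation test, adjusted p = 0.0694).

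**Figure D1:**
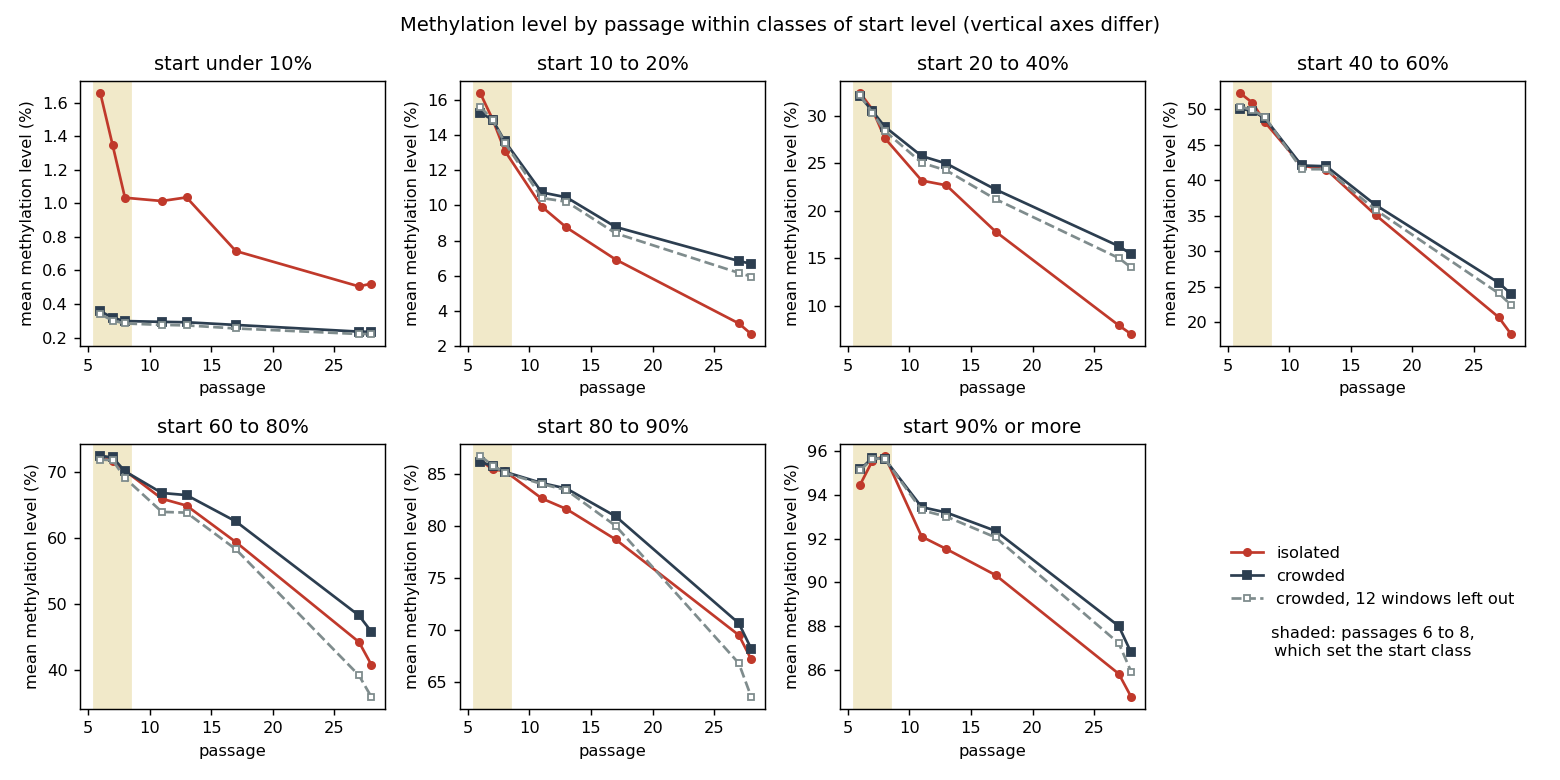
Mean methylation level (%, vertical axes differ between panels) against passage in the 7 classes of start level, for isolated CpGs, all crowded CpGs and crowded CpGs with 12 windows left out. In the class of 20 to 40% isolated CpGs reach 7.02% and crowded CpGs 15.4% at passage 28, while at that passage in the class of 60 to 80% the line of all crowded CpGs is above the isolated line and the line without the 12 windows is below it.

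The start classes were set with passages 6 to 8, which are also part of each trend. Over passages 11 to 28 alone, which took no part in the classing, the difference of slopes was -0.378 in the class of 20 to 40%, -0.327 from 40 to 60% and -0.207 from 60 to 80% (exact permutation tests, n = 5, adjusted p = 0.0437, 0.0292 and 0.0437). From 80 to 90% it was 0.0457, of the opposite sign, and did not pass (adjusted p = 0.225, exact permutation test, n = 5). For the class of 90% or more it was -0.0360 and did not pass (adjusted p = 0.126, exact permutation test, n = 5). Over 5 libraries the smallest p is 0.00833.

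At low start, loss was smaller in classes with more neighbours. Among CpGs that started between 20 and 40%, the change (passages 27 and 28 minus passages 6 to 8) was -22.7 points with 0 neighbours (1822 CpGs) and -22.7 with 1 (2179 CpGs). It was -20.9 with 2, -19.2 with 3, -17.6 with 4 or 5, -13.6 with 6 to 8 (594 CpGs) and -5.87 with 9 or more (356 CpGs). With the 12 windows described below left out, it was -22.8 points with 0 neighbours, -18.2 with 4 or 5, -14.2 with 6 to 8 and -7.51 with 9 or more (242 CpGs), in the same order. Isolated CpGs and CpGs with 1 neighbour thus had about the same loss, and the loss was smaller in each class of more neighbours.

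From 60 to 80% the order was different. Among CpGs that started between 60 and 80%, the change was -28.9 points with 0 neighbours, -31.5 with 1, -31.4 with 2, -31.0 with 3 and -32.8 with 4 or 5. It was -20.5 points with 6 to 8 neighbours and -5.04 with 9 or more. Without the 12 windows it was -28.9 with 0 neighbours, -34.8 with 4 or 5, -34.8 with 6 to 8 (545 CpGs) and -15.4 with 9 or more (178 CpGs), so the smaller loss with 6 to 8 neighbours was found only with the windows included. Isolated CpGs of this class lost less than CpGs with 1 to 5 neighbours, with and without the windows. Against crowded CpGs with 4 or 5 neighbours alone, a comparison added once the data had been seen, the slope of isolated minus crowded from 60 to 80% was 0.180 (exact permutation test, n = 8, adjusted p = 0.0105), the opposite sign to that against all crowded CpGs. Against CpGs with 9 or more neighbours it was -1.16 (exact permutation test, n = 8, adjusted p = 0.000174). For starts of 90% or more, the change was -9.98 points with 0 neighbours, -10.1 with 1, -8.60 with 4 or 5 and -7.84 with 6 to 8. Without the 12 windows, those starts gave -9.98 with 0 neighbours, -10.2 with 1, -9.13 with 4 or 5 and -8.69 with 6 to 8.

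**Figure D2:**
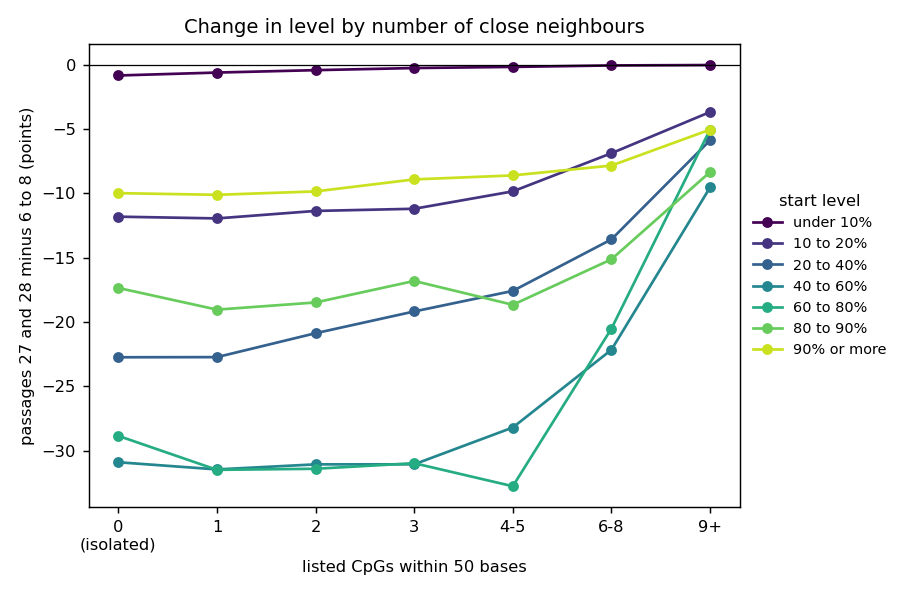
Change in mean level (percentage points, passages 27 and 28 minus passages 6 to 8) against the number of CpGs listed within 50 bases, with 1 line per class of start level. From 20 to 40% the loss shrinks with each further class of neighbours, from 60 to 80% it is -28.9 points for isolated CpGs and -32.8 with 4 or 5 neighbours, and with 9 or more neighbours it is under 10 points in all 7 classes, with the 12 windows included.

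Part of the crowded CpGs lay in a few places. A search for 100000 base windows with 100 or more crowded CpGs that started at 10% or more, chosen after seeing the data, found 12 windows. They held 3900 of the 22315 crowded CpGs with such a start (17.5%) and 71 isolated CpGs. On chromosome 1, 1315 of these crowded CpGs lay between 228743076 and 228783406 (hg19), and they averaged 75.4% over passages 27 and 28, against 78.7% over passages 6 to 8. On chromosome 10, 573 lay between 135435894 and 135498961 and averaged 82.8% over passages 27 and 28, against 84.5% over passages 6 to 8. On chromosome 4, adjacent windows held 406 and 355 of them between 190905999 and 191014010, with changes of -2.52 and -2.15 points.

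These windows supplied 28.3% of the crowded CpGs that started between 60 and 80%. The 971 crowded CpGs of this class inside the windows averaged 71.0% over passages 27 and 28, against 73.2% ± 0.603 (SD, n = 3) over passages 6 to 8. The 2455 crowded CpGs outside them averaged 37.5%, against 70.9% ± 1.59 (SD, n = 3). The 4066 isolated CpGs outside the windows averaged 42.4%, against 71.3% ± 1.07 (SD, n = 3), which is above the crowded CpGs outside the windows and below those inside them. Median reads per library ranged between 17 and 71 per CpG in 11 of the windows. In the window on chromosome 21 at 9800001 to 9900000 the median was 401.

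With the 12 windows left out, the calls from 10 to 60% were kept, the called difference from 60 to 80% turned round and the call at 90% or more was lost. The slope of isolated minus crowded was -0.156 between 10 and 20%, -0.341 between 20 and 40% and -0.226 between 40 and 60% (exact permutation tests, n = 8, adjusted p at most 0.00404). It was 0.207 from 60 to 80% (exact permutation test, n = 8, adjusted p = 0.00924) and 0.173 from 80 to 90% (adjusted p = 0.0413, same test), a class with no call when the windows were included. At 90% or more it was -0.0463 and did not pass (adjusted p = 0.109, same test).

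With start level matched in steps of 5 points, for CpGs starting at 20% or more, the sets began together. The 22682 isolated CpGs averaged 60.9% and the matched crowded CpGs 63.8% over passages 27 and 28, against 79.1% in both over passages 6 to 8. The difference of slopes was -0.140 ± 0.0183 points per passage (SE over n = 8 libraries, r = -0.953, exact permutation p = 9.92e-05, adjusted p = 0.000149 over 3 comparisons; rho = -0.929, exact permutation p = 0.00223). Leaving out the 12 windows gave 0.0101 ± 0.0257 (SE, n = 8; exact permutation p = 0.719). With the same weight for each tile of 1000 bases it was -0.0177 (exact permutation p = 0.483, n = 8). Against crowded CpGs with 4 or 5 neighbours it was -0.00832 (exact permutation p = 0.679, n = 8), and with 9 or more -0.557 (exact permutation p = 2.48e-05, n = 8).

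**Figure D3:**
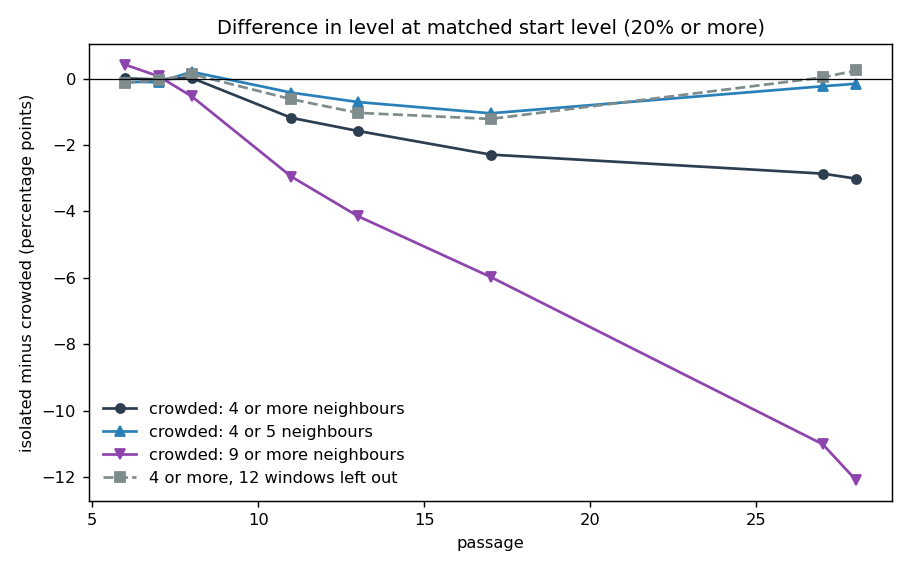
Isolated minus crowded level (percentage points) at matched start level of 20% or more, by passage, for 4 ways of choosing the crowded CpGs. At passage 28 the difference is -12.1 points against CpGs with 9 or more neighbours, -3.01 against all crowded CpGs, -0.158 against CpGs with 4 or 5 neighbours and 0.243 with the 12 windows left out.

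Within the same tile the difference did not pass the test. There were 368 combinations of a tile of 1000 bases and a start class (20% or more) that held both 374 isolated and 792 crowded CpGs. Isolated CpGs averaged 60.8% and crowded CpGs 61.5% over passages 27 and 28, against 80.2% and 81.1% over passages 6 to 8. Their slopes differed by -0.00323 ± 0.0415 points per passage (SE over n = 8 libraries, r = -0.0317, exact permutation p = 0.933; rho = -0.0714). Against crowded CpGs with 6 or more neighbours in the same tile it was -0.140 (exact permutation p = 0.00630, n = 8).

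The wider surroundings of isolated CpGs went with their loss as well. Of the isolated CpGs, 5806 (19.6%) had 10 or more CpGs listed within 500 bases. Among isolated CpGs that started between 80 and 90%, the 1615 with 0 to 2 CpGs within 500 bases averaged 70.3% over passages 27 and 28, against 85.7% ± 0.640 (SD, n = 3) over passages 6 to 8. The 546 with 10 to 19 averaged 61.8%, against 85.7% ± 0.759 (SD, n = 3), and the 74 with 20 to 34 averaged 57.8%, against 85.3% ± 0.559 (SD, n = 3). In the class of 60 to 80% the change was -25.1 points with 0 to 2 CpGs within 500 bases, -28.1 with 3 to 5, -30.8 with 6 to 9, -35.1 with 10 to 19 and -37.5 with 20 to 34. Each step of denser surroundings had a larger loss in the 4 classes that started at 40% or more.

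Isolated CpGs that started below 40% had no order of loss by surroundings. Their changes lay between -20.6 and -24.5 points from 20 to 40% and between -11.5 and -12.1 points from 10 to 20%. Differences between these groups of isolated CpGs were not tested. When crowded CpGs were also matched on broad classes of the number of CpGs within 500 bases, the start-matched slopes differed by -0.0568 ± 0.0115 (SE, n = 8, exact permutation p = 0.00186). Without that match it was -0.140, and both values include the 12 windows. All CpGs with under 10 others within 500 bases formed 1 class of this match. In that class, from 60 to 80%, 1322 isolated CpGs had 0 to 2, while 37 crowded CpGs had 3 to 5 and 341 had 6 to 9. Surroundings were thus matched only in part.

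**Figure D4:**
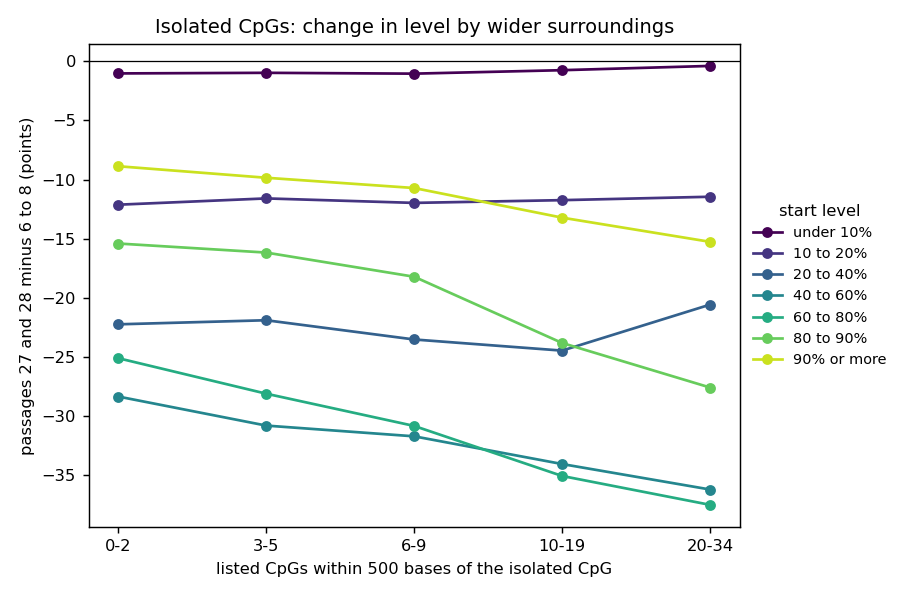
Change in mean level of isolated CpGs (percentage points, passages 27 and 28 minus passages 6 to 8) against the number of CpGs listed within 500 bases, with 1 line per class of start level. From 80 to 90% the change is -15.4 points with 0 to 2 such CpGs and -27.6 points with 20 to 34.

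Distance to the nearest listed CpG made little difference among isolated CpGs up to 200 bases. From 60 to 80%, the level over passages 27 and 28 was 41.6% at 51 to 75 bases, 41.3% at 76 to 100 bases and 43.1% beyond 100 and up to 200 bases. CpGs just outside the rule, whose nearest neighbour lay 26 to 50 bases away, stood at 36.9%. The 92 isolated CpGs of this class whose nearest neighbour lay more than 200 bases away stood at 51.2%, against 71.0% ± 2.09 (SD, n = 3) over passages 6 to 8. In other classes, CpGs at 26 to 50 bases did not all end lower than isolated CpGs at 51 to 75 bases. The late levels were 8.74% and 6.71% from 20 to 40%, and 20.5% and 18.6% from 40 to 60%. They were 2.39% and 2.55% from 10 to 20%, 66.2% and 69.3% from 80 to 90%, and 84.3% and 84.5% at 90% or more. None of these differences was tested.

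The rate of loss was similar before and after passage 17 over all isolated CpGs, at -0.692 points per passage between passages 8 and 17 and -0.695 between passages 17 and 27. The classes differed. For starts of 60 to 80% the rate was -1.20 points per passage before passage 17 and -1.52 after it, and from 80 to 90% it was -0.732 and -0.920. Crowded CpGs of these classes also had the faster rate after passage 17, with -0.844 and -1.43, and -0.476 and -1.03. At 90% or more the rate was -0.607 before and -0.452 after in isolated CpGs, and -0.365 and -0.435 in crowded CpGs. Isolated CpGs from 10 to 20% had -0.686 before and -0.363 after, and stood at only 6.92% at passage 17. Differences between these rates were not tested. Over all isolated CpGs, passage 28 minus passage 27 was -1.45 points and passage 7 minus passage 6 was -0.209 points, 1 passage apart each.

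Isolated CpGs of 1 start class did not all behave alike. From 60 to 80%, the middle 50% of isolated CpGs changed by between -50.2 and -8.51 points, with a median of -29.2. The standard deviation of the change was 26.04 points, of which read counting alone would give 8.68. At 90% or more the median change was -4.14 points, while 10% of CpGs changed by -33.0 points or lower. Crowded CpGs from 60 to 80% had a median change of -13.6 points (interquartile range -52.5 to -1.26), a wider middle range that reached both closer to 0 and further down. These crowded CpGs include those in the windows with many crowded CpGs described above. The 971 inside those windows had a mean change of -2.28 points, and the 2455 outside them -33.4 points. No median or middle range is given without the windows.

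Fates of single CpGs showed the same spread. Of 14431 isolated CpGs that started at 80% or more, 9314 (64.5%, 95% Wilson interval 63.8 to 65.3%) were at 80% or more over passages 27 and 28. Another 4731 (32.8%) lay between 20 and 80%, and 386 (2.67%, Wilson interval 2.42 to 2.95%) lay under 20%. Of 13208 crowded CpGs of that start, 9821 (74.4%, Wilson interval 73.6 to 75.1%) were at 80% or more and 473 (3.58%, Wilson interval 3.28 to 3.91%) under 20%. Crowded CpGs thus had larger shares both at 80% or more and under 20%. The intervals cover counting error only and treat CpGs as independent, which crowded CpGs that share reads are not.

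Of 11026 isolated CpGs that every early library put at 80% or more, 6800 were still there in both passages 27 and 28 (61.7%, Wilson interval 60.8 to 62.6%). For crowded CpGs it was 7902 of 11026 (71.7%, Wilson interval 70.8 to 72.5%). Within the class that started at 90% or more, 76.2% of isolated and 84.7% of crowded CpGs averaged 80% or more over passages 27 and 28, and outside the 12 windows the shares were 76.1% and 83.0%. Within the class of 80 to 90% the shares were 41.6% and 47.8%, and outside the windows 41.6% and 42.3%.

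CpGs of intermediate start often ended under 20%. Of 8251 isolated CpGs that started between 20 and 80%, 4022 (48.7%, Wilson interval 47.7 to 49.8%) ended under 20%. Of 7869 such crowded CpGs, 3250 (41.3%, Wilson interval 40.2 to 42.4%) did. In the class of 20 to 40% alone, 86.2% of isolated and 60.2% of crowded CpGs averaged under 20% over passages 27 and 28, and outside the windows the shares were 86.3% and 64.7%.

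Correlations of change with the nearest kept CpG were lower for isolated CpGs than for CpGs with listed neighbours. Among CpGs that started at 60% or more and whose nearest kept CpG did too, the change of an isolated CpG correlated with that of its nearest kept CpG at r = 0.340 for distances of 51 to 100 bases (2326 pairs) and 0.344 beyond 100 and up to 200 bases (3205 pairs). For CpGs with listed neighbours, r was 0.602 at 51 to 100 bases (5306 pairs) and 0.526 beyond 100 and up to 200 bases (5906 pairs), and 0.817 at 2 to 10 bases (13439 pairs). These are correlations across CpGs of the same libraries. A pair can enter from both of its CpGs, close pairs can share reads, and CpGs are not independent replicates, so no test is given.

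Single CpGs were then fitted one by one. A quasi-binomial logistic regression on passage was run on every kept autosomal CpG whose reads summed over the 8 libraries included 10 or more of each state, and losses were those past an adjusted p of 0.05 whose fitted level was 10 points or more lower at passage 28 than at passage 6. Of 29667 isolated CpGs, 19623 could be tested, and 7823 of them (39.9%) were called as losses, against 37.5% of all 90260 tested CpGs. There were 103 gains (0.525%), against 0.363% of all tested CpGs, and 11697 isolated CpGs were not called. The loss count was 4839 without passage 28, a setting for which no share over all tested CpGs is given.

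The other 10044 isolated CpGs had too few reads of one state to be tested, and 5772 of them started under 10% and 4005 at 90% or more. At 90% or more, 5572 of 9577 were tested, and a CpG of such a start passes that filter only if unmethylated reads appear in some library, so a share of tested CpGs is not a share of that class. Over all isolated CpGs of that class, tested or not, 16.4% were called as losses, against 10.8% of crowded CpGs. Among those tested it was 28.2% of isolated and 21.4% of crowded CpGs, with a background of 24.7% over all tested CpGs of that start. From 20 to 40%, where all but 1 isolated CpG was tested, 60.5% of tested isolated CpGs were called as losses, 38.9% of crowded CpGs and 54.9% of all tested CpGs. From 60 to 80% the shares were 47.8% of isolated, 39.1% of crowded and 48.0% of all tested CpGs. Starts of 40 to 60% gave 58.9%, 45.2% and 56.6%, and starts of 80 to 90% gave 30.5%, 24.9% and 29.3%, in the same order of sets. Starts of 10 to 20% gave 41.7%, 26.9% and 38.5%, and under 10%, where 265 isolated CpGs were tested, 15.5%, 3.13% and 9.58%. Isolated shares were close to the background from 60 to 90% and the distance was widest, in classes with most CpGs tested, from 20 to 40%. All these shares include the windows with many crowded CpGs described above, and none is given without them. From 60 to 80%, the 2455 crowded CpGs outside the windows changed by -33.4 points and the 4066 isolated ones by -28.9. Falls of 50 points or more between the early and late libraries were seen in 37.9% of these crowded and 25.4% of these isolated CpGs. The median fitted change of the 7823 isolated CpGs called as losses was -43.9 points, and 2850 of them had a fitted fall of 50 points or more. Among the 5452 crowded CpGs called as losses the median was -46.3 points, and 2392 had such a fall.

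The largest falls show isolated CpGs that were nearly full in the early libraries and nearly empty in the late ones. They were taken by rule from the 2043 isolated CpGs with 20 or more reads in every library, chromosome 8 left out. On chromosome 19 the CpG at 2213070 to 2213071 (hg19) had 82.8%, 100%, 100%, 92.0%, 88.0%, 85.7%, 0% and 0% from passage 6 through passage 28. None of its 56 reads at passages 27 and 28 was methylated (Wilson interval 0 to 6.42%), and all 6 earlier libraries stood above 80%. On chromosome 12 the CpG at 132330600 to 132330601 had 95.6%, 97.2%, 96.2%, 86.2%, 89.4%, 86.0%, 8.33% and 0%. On chromosome 21 the CpG at 46419508 to 46419509 had 79.5%, 81.0%, 86.4%, 73.5%, 70.8%, 47.1%, 0% and 0%, and so was already lower at passage 17.

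The other 2 largest falls were alike. On chromosome 10 the CpG at 114844334 to 114844335 averaged 5.61% over passages 27 and 28, against 93.9% ± 5.27 (SD, n = 3) over passages 6 to 8, and it had 100% at passage 17. On chromosome 19 the CpG at 1359263 to 1359264 averaged 2.86%, against 87.6% ± 2.42 (SD, n = 3), with 68.2% at passage 17. Fitted changes of these 5 CpGs lay between -93.2 and -83.2 points, and the adjusted p, from that regression with limma's dispersion moderation, was at most 0.000116. They had between 4 and 14 CpGs listed within 500 bases.

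Gains were few and less steady. On chromosome 1 the CpG at 3286162 to 3286163 had 30.9%, 14.3%, 53.8%, 18.2%, 19.05%, 9.09%, 85.7% and 86.2% from passage 6 through passage 28, and only passages 27 and 28 stood above 60%. It lost its call without passage 27 or without passage 28 (adjusted p = 0.0506 and 0.0710, fit with limma's moderated dispersion). On chromosome 9 the CpG at 139302123 to 139302124 had 67.6%, 50%, 77.8%, 76.9%, 90%, 100%, 100% and 96.8%, with a fitted rise of 36.3 points (adjusted p = 0.00148, same fit), and kept its call in every alternative fit run.

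On chromosome 6 the CpG at 28366345 to 28366346 averaged 89.3% over passages 27 and 28, against 51.5% ± 6.81 (SD, n = 3) over passages 6 to 8, and lost its call without passage 27, without passage 28 and with reads thinned to 10. On chromosome 15 the CpG at 63226748 to 63226749 averaged 93.9%, against 72.9% ± 11.6 (SD, n = 3), and lost its call without passage 28 and with thinned reads. The CpG on that chromosome at 68594633 to 68594634 averaged 73.9%, against 52.0% ± 5.65 (SD, n = 3), and lost its call with thinned reads, on the logit scale and on omission of passage 6, 7, 8, 27 or 28 (for the omissions, adjusted p between 0.0525 and 0.291, fit with limma's moderated dispersion).

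Some isolated CpGs had no unmethylated read at the end. Of 880 isolated CpGs that started at 80% or more, with 20 or more reads in every library, 28 had no unmethylated read at passages 27 and 28. The 5 of these with the most reads over all libraries were on chromosome 3 at 48266468 to 48266469, chromosome 16 at 70185132 to 70185133, chromosome 5 at 159537299 to 159537300, chromosome 17 at 7099285 to 7099286 and chromosome 19 at 1603919 to 1603920. Earlier libraries were not all full. The lowest was 77.5% (passage 7) on chromosome 3, 82.9% (passage 7) on chromosome 16, 86.2% (passage 17) on chromosome 5, 77.4% (passage 13) on chromosome 17 and 90% (passage 13) on chromosome 19. They were chosen for their late level, so that level is a description only. No count of this kind is given for crowded CpGs, so the 28 cannot be read as particular to isolated CpGs.

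**Figure D5:**
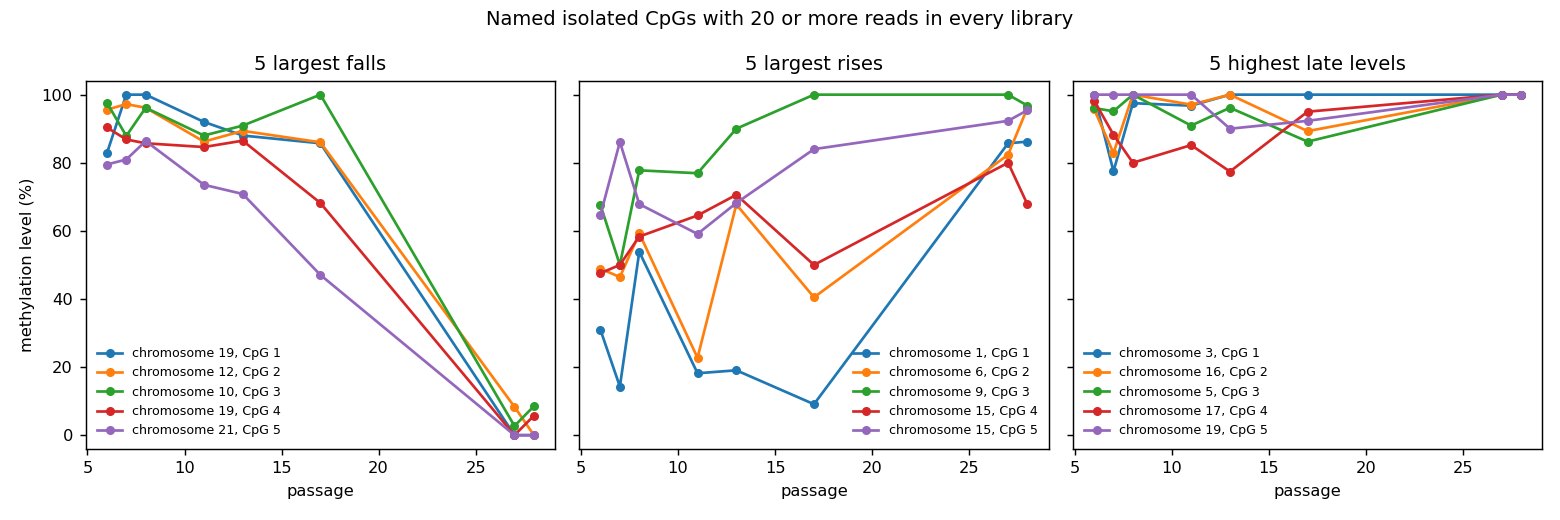
Methylation level (%) by passage of 15 isolated CpGs with 20 or more reads in every library: the 5 largest called falls, the 5 largest called rises and the 5 highest late levels. The falls end between 0% and 8.51% at passages 27 and 28, and at passage 17 the 5 CpGs stand between 47.1% and 100%.

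Over isolated CpGs of every start, the change between passages 27 and 28 and passages 6 to 8 lay between -17.4 points (chromosome 22) and -11.2 points (chromosome 3) on the 22 autosomes. Among those that started at 60% or more, the change between the means of passages 27 and 28 and of passages 6 to 8 ranged from -11.8 points on chromosome 3 (852 CpGs) to -19.7 points on chromosome 11 (896 CpGs). For crowded CpGs the range was wider, from -6.50 points on chromosome 4 to -22.9 points on chromosome 16. On chromosomes 16, 17, 19 and 20 crowded CpGs lost more points than isolated ones, and on the other 18 autosomes isolated CpGs lost more. With the 12 windows left out, crowded CpGs also lost more on chromosomes 1 and 7, which made 6 autosomes against 16. The crowded change on chromosome 4 was then -12.1 points, and the smallest was -7.43 points on chromosome 15. Within starts of 60% or more, isolated and crowded CpGs were not matched on start level here. Chromosomes were not tested against each other.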

How the data were processed

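RRBS libraries of 8 passages were analysed. The deposited files list CpGs of build hg19, per the submitters' processing notes, with methylated and total read counts. The authors' deposited score equals methylated over total reads times 1000, rounded (checked on every line), and only the counts were used. The sources used here do not name an aligner, caller, coverage filter or duplicate removal, and duplicates would make intervals too narrow. Libraries held between 19898423 and 44599588 reads over CpGs.

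Levels are methylated over total reads, and each CpG had the same weight. Neighbours are positions listed in any file. Trends are least squares on passage, with two-sided exact permutation tests of r over all 40320 orders and Benjamini-Hochberg adjustment. Single CpGs were fitted by quasi-binomial regression over all kept CpGs, with dispersion moderated by limma 3.58.1 (squeezeVar, not under 1), in R 4.3.3, and tested on simulated data. Python 3.11.15, numpy 2.4.6 and scipy 1.17.1 were used. Named CpGs had 20 or more reads in every library, at most 1 per tile: the 5 largest called falls, the 5 largest called rises and the 5 highest late levels, with ties broken by reads. Members, classes and tests were chosen with earlier results of these data known. Neither gene annotation nor genome sequence of hg19 was used here, so no gene is named and no sequence shown.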

Additional observations from a re-analysis of the deposited data

Results flagged for a closer look

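Isolated CpGs of chromosome X were outside the autosomal comparison, and their loss is given here because that comparison did not use them. Over 268 of them the level averaged 52.7% over passages 27 and 28, against 65.8% ± 0.715 (SD, n = 3) over passages 6 to 8, a change of -13.2 points. Among the 140 that started at 80% or more, which lay in 106 windows of 100000 bases, the change was -7.94 points, against -12.5 points in 14431 autosomal isolated CpGs of that start. Per passage, the chromosome X minus autosome slope came to 0.217 ± 0.0244 points (SE over 8 libraries, exact permutation p = 0.000769). On chromosome X the change was -14.0 points with 1 to 3 neighbours (758 CpGs) and -19.6 points in crowded CpGs (280 CpGs), a difference from isolated CpGs that was not tested. Of these crowded CpGs, 36 lay in 1 window of 100000 bases. Autosomal crowded CpGs changed less than those of chromosome X, by -16.3 points from 80 to 90% and -8.11 points at 90% or more. That difference was not tested.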

How the results depend on the processing

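Alternatives with 4 or 5 and with 9 or more neighbours, and without the 12 windows, were chosen after seeing the data. The isolated slope and the difference over all starts kept sign and call in every alternative run. So did the differences from 10 to 20% and from 20 to 40%. From 40 to 60% the call was lost only with a window of 100 bases (-0.0360). From 60 to 80% the sign turned with a window of 100 bases (0.0975), equal weight per tile (0.227), 4 or 5 neighbours (0.180) and without the 12 windows (0.207), and it was -1.05 with 20 reads, -0.685 with 6 or more neighbours, -1.16 with 9 or more and -0.554 with pooled reads. From 80 to 90% the difference passed the test at 0.191 with 5 reads, -0.491 with 20 reads, -0.213 with 6 or more neighbours, -0.448 with 9 or more, -0.200 with pooled reads, -0.0877 with reads thinned to 10 and 0.173 without the windows. At 90% or more it was 0.00351 with 5 reads. The call there was lost with a window of 100 bases (-0.0338), over passages 11 to 28 (-0.0360), with start from passage 6 (-0.0529), equal weight per tile (-0.0248), without the windows (-0.0463) and with 4 or 5 neighbours (-0.0617), and omission of single libraries gave -0.111 to -0.0758. Under 10% it was lost over passages 11 to 28 (-0.0276). The start-matched difference lost its call with 5 reads (-0.0138), a window of 100 bases (-0.00821), equal weight per tile (-0.0177) and 4 or 5 neighbours (-0.00832), and was 0.0101 without the windows, but -0.559 with 20 reads, -0.318 with 6 or more neighbours, -0.557 with 9 or more and -0.312 with pooled reads. The same-tile difference passed with a window of 25 bases (-0.0468) and 6 or more neighbours (-0.140); at 20 reads under 50 tile and class combinations were left and it was not run. Where no construction of an alternative shows it, the cause was not tested.

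With 5 reads 22759 of 66964 tested isolated CpGs were losses (33.99%), with 20 reads 655 of 1508 (43.4%), with the window of 100 bases 3723 of 9502 (39.2%) and with thinned reads 5197 of 14233 (36.5%). Omission of single libraries gave 4839 to 8039. Gains numbered 318 at 5 reads, 9 at 20 reads and 48 with a window of 100 bases, and 72 to 120 on omission of single libraries. No share over all tested CpGs is given for these alternatives, so whether these loss and gain counts set isolated CpGs apart cannot be told. CpGs kept at 80% made up 57.8% at 20 reads, 63.5% with thinned reads, 68.2% at a level of 70% and 49.1% at 90%, and 58.3 to 72.3% on omission of single libraries, highest without passage 28. That share uses no trend, so the alternative over passages 11 to 28 gives no value for it. Of the values for named CpGs under other fits, 146 had the same call, 14 lost it and 2 became calls, with none reversed. The minimum of 5 or 20 reads leaves the reads of these CpGs unchanged, so their fitted changes there could not differ. The same call also covers CpGs of the highest late levels that stayed uncalled. Depth limits single CpGs, with medians of 16 to 35 reads per library. No paired analysis was possible because no group here has a second library to pair.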
